A study of Rattus norvegicus with 6 samples.

Results

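Ribosomal protein genes gave some of the brightest probes in the rat hearts of this study, and 5 of them are described here: Rps29, Rps7, Rps6, Rpl15 and Rpl29. They were found by their symbols in the platform's gene annotation, which gave each of the 5 genes a single probe, so that they hold 5 of the 1185 probes and are 5 of the 1103 genes with a symbol on the array. None of the 5 probes was at the lowest listed level on any array. The genes were chosen by values measured on these same arrays, namely their brightness and the way Rps29 stood apart from the rest between groups. Their levels, ranks and group differences are therefore given as a description, with no test.

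The study measured total RNA from whole rat hearts on 1 array per heart. Cardiopulmonary bypass (CPB), during which a machine pumps and oxygenates the blood in place of heart and lungs, was applied to 3 of the rats. The other 3 were sham-operated controls. Keywords of the labels include cytokine and inflammation. The labels used here state neither strain, sex and age nor the length of bypass and the time of sampling, and they do not say whether arrays were run together. All spreads are those between arrays, either within a group of 3 or over all 6.

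Ribosomal proteins build the small (Rps) and large (Rpl) subunits of the ribosome together with ribosomal RNA, and their messenger RNAs are among the most abundant of most tissues. Many of these messages begin with a run of pyrimidines directly after the cap, the terminal oligopyrimidine tract, through which mTOR signalling adjusts their translation to nutrients and growth. Rps29 is a small zinc-binding protein of the small subunit. Rps7 is a small-subunit protein also known for binding the p53 regulator Mdm2, and Rps6 is the small-subunit protein that S6 kinases phosphorylate. Rpl15 and Rpl29 belong to the large subunit, and Rpl29 is also known as a heparin-binding protein.

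In the rat RefSeq gene table (assembly GRCr8) Rps29 (gene 25348, probe R371) lies at chr6:93371293-93372731 and Rps7 (gene 29258, probe RG514) at chr6:50994581-50999447. Rps6 (gene 29304, probe RG156) lies at chr5:106417680-106420540, Rpl15 (gene 245981, probe RA1295) at chr15:9934663-9937946, and Rpl29 (gene 29283, probe RA0227) at chr8:115056443-115949677. The Rpl29 entry is far longer than the others, and the start used for its promoter lies near the end of that span. Ribosomal protein genes have many processed copies in mammalian genomes. The same table lists, by name, 21 further copies of Rps29 (16 of them pseudogenes), 23 of Rps7, 11 of Rps6, 15 of Rpl15 and 25 of Rpl29. A probe may also bind RNA from a near-identical copy, so each value below is that of the probe.

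Promoter sequences from RefSeq (GRCr8) were matched for 3 of the 5 genes, Rps7, Rps6 and Rpl29. The 110 bases before each annotated start are shown because these promoters carry sequence elements that the choice of genes did not use. They run 5′ to 3′ on the gene's own strand, and capitals mark every match, on either strand, to TCGCGA or to CTTCCG (the core letters of ETS factor sites), which did not overlap each other.
Rps7, chr6:50999446-50999555, minus strand: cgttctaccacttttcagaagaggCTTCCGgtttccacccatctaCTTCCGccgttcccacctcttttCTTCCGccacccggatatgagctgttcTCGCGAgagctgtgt
Rps6, chr5:106420541-106420650, minus strand: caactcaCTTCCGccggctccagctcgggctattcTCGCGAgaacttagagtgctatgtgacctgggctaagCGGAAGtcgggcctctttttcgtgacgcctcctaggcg
Rpl29, chr8:115947533-115947642, plus strand: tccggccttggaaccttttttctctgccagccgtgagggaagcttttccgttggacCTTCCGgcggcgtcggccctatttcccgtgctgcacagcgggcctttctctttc

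The palindrome TCGCGA occurred 1 time each in the Rps7 and Rps6 promoters and was not among the letters of the Rpl29 window. It began 15 bases before the start in Rps7 and 75 in Rps6. It was found in 766 of 33469 rat promoters of the same length (250 bases before to 50 after the start), or 2.29%. Of the 12 promoters matched for the other measured ribosomal protein genes, 3 held it (Rpl10a, Rpl4 and Rps15). CTTCCG occurred 3 times before the start in Rps7, 3 times in Rps6 (2 of them within the bases shown) and 1 time in Rpl29. It was found in 16.6% of all promoters and in 7 of those 12. Within 20 bases on either side of the start, the longest run of C and T was 9 bases in Rps7, 18 in Rpl29 and 6 in Rps6. In Rps6 a longer run among the bases shown (cctctttttc) crosses the edge of this window and was counted only in part. Runs of at least 9 were found in 10.3% of all promoters and in 9 of the 12, and runs of at least 18 in 0.499% and in 0 of the 12. These are matches of letters only.

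The arrays differed in overall level. On the log2 scale of the deposited values the median probe lay between 8.51 (CPB replicate 1) and 9.84 (sham replicate 3), and the share of probes at an array's lowest level from 10.7% to 47.3%. The labelled tissue was borne out by cardiomyocyte markers: Tnnt2 (cardiac troponin T) and Myh6 (alpha myosin heavy chain) held ranks 1 and 2 on all 6 arrays. Of the 7 cardiomyocyte markers measured, only Tpm1 was at the lowest level on any array, while no marker of endothelial or red blood cells fixed for this purpose was measured. Once converted to a linear scale, the deposited values of each array lie on a grid of equal steps. For the 5 ribosomal protein probes a step was at most 2.81% of the value (Rpl15 on sham replicate 3), so they are finely resolved.

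Rps29 was the brightest ribosomal protein probe on all 6 arrays. It ranked 8, 4 and 4 among 1185 probes on CPB replicates 1, 2 and 3, and 3, 4 and 3 on sham replicates 1, 2 and 3. Tnnt2 and Myh6 were brighter on every array, and the unnamed probe R372 was brighter on all but sham replicates 1 and 3. On CPB replicate 1 it was also passed by Cox6c (a cytochrome oxidase subunit), Ckm (muscle creatine kinase), Tnni3 (cardiac troponin I) and Fth1 (ferritin heavy chain). Rank gives the brightness of a probe, which depends on its sequence and label as well as on the RNA, and not the number of messages.

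**Figure D1:**
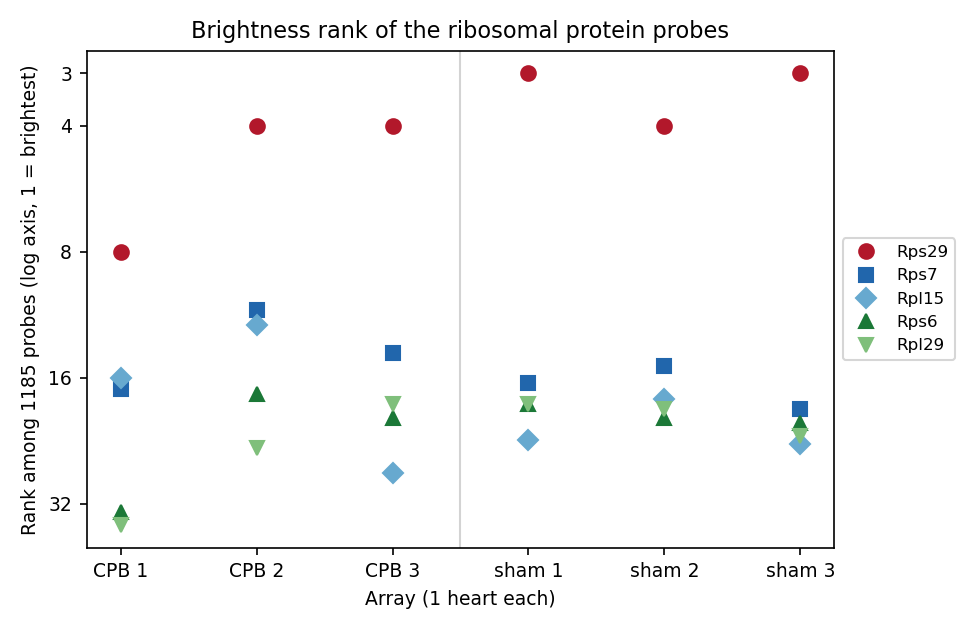
Brightness rank of the 5 ribosomal protein probes among 1185 probes (log axis, 1 is the brightest) on each of the 6 arrays. Rps29 holds rank 3 or 4 on 5 arrays and rank 8 on CPB replicate 1, where Rps6 and Rpl29 also take their lowest ranks.

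The other 4 genes followed at some distance. Rps7 had a mean rank of 15.4 (11 to 19), Rpl15 of 19.8 (12 to 27), Rps6 of 21.7 (17.5 to 33.5) and Rpl29 of 22.9 (18.5 to 36). Rps7 was brighter than Rps6 and Rpl29 on all 6 arrays, while the places of Rpl15 and the order of Rps6 and Rpl29 differed between arrays. The next ribosomal protein probe, Rpl14, had a mean rank of 27.2 (16 to 37.5) and overlapped them as well. At least 96.9% of all probes were dimmer than each of the 5 genes on each array.

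**Figure D2:**
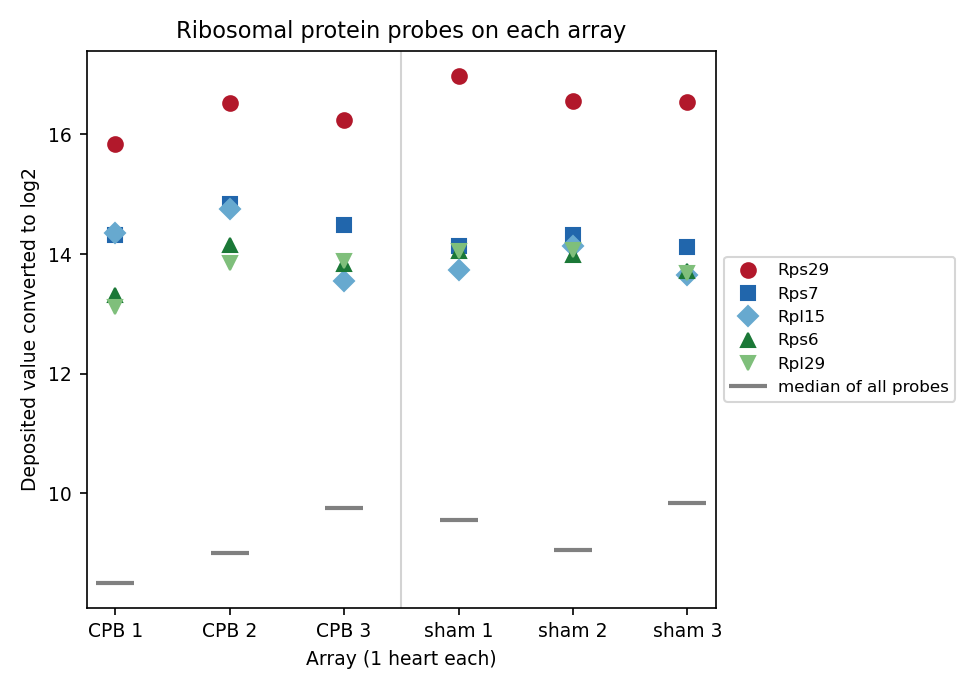
Deposited values converted to log2 for the 5 ribosomal protein probes on each array (points), with the median of all 1185 probes as a grey bar. Rps29 lies between 15.84 and 16.98 on all arrays, while Rps6 and Rpl29 drop to 13.31 and 13.11 on CPB replicate 1.

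In deposited values converted to log2, Rps29 stood at 15.84, 16.53 and 16.25 on CPB replicates 1, 2 and 3, and at 16.98, 16.56 and 16.54 on sham replicates 1, 2 and 3. The CPB values were all lower than the sham values, but CPB replicate 2 (16.53) nearly met sham replicate 3 (16.54). The CPB mean was 16.21 ± 0.35 and the sham mean 16.69 ± 0.25 (SD, n = 3 each), so the sham level was 1.40 times the CPB level. Rps29 was the single gene of the 5 whose groups did not overlap. Over all probes, the groups stood apart with CPB lower for 3.12% and with CPB higher for 0.928%. The separation depended on the scaling. After quantile normalization CPB replicates 2 and 3 and sham replicate 2 held the same value (16.46), and none of the 5 genes had groups apart (2.62% of all probes were apart with CPB lower and 1.6% with CPB higher).

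Quantile normalization widened the Rps29 difference. At these ranks the normalized level is set by rank alone, and Rps29 took 1 of 3 levels: 17.21 at rank 3, 16.46 at rank 4 and 15.45 at rank 8. The fitted log2 difference, CPB minus sham, was -0.84 (SE 0.35, 95% interval -1.58 to -0.09), against -0.48 (SE 0.35, 95% interval -1.17 to 0.21) in the values as deposited. With the replicate number as a block, the interval after quantile normalization was -2.19 to 0.52. Without CPB replicate 1, the array with the lowest value, it was -0.45 after quantile normalization. In the fit across all 1185 probes, limma called 0 after Benjamini-Hochberg adjustment (0%) and 35 had an unadjusted p under 0.05 (2.95%). The deposited values gave 46 such probes (3.88%) and 1 called probe (0.0844%), Sparc, which is not a ribosomal protein gene.

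Rps7 stood at 14.31, 14.83 and 14.48 in deposited log2 values on CPB replicates 1, 2 and 3, and at 14.13, 14.32 and 14.12 on sham replicates 1, 2 and 3. The lowest CPB value and the highest sham value were nearly equal, and the groups overlapped by that margin. After quantile normalization the log2 difference was 0.26 (SE 0.28, 95% interval -0.33 to 0.86), with means of 14.50 ± 0.32 for CPB and 14.24 ± 0.17 for sham (SD, n = 3 each). It was 0.10 without CPB replicate 2 and 0.43 without CPB replicate 1.

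Rpl15 varied most among the CPB hearts. Its deposited log2 values were 14.35, 14.76 and 13.55 on CPB replicates 1, 2 and 3, and 13.72, 14.13 and 13.64 on sham replicates 1, 2 and 3. CPB replicates 1 and 2 lay above all sham values and CPB replicate 3 below them all. The fitted log2 difference was 0.29 (SE 0.31, 95% interval -0.38 to 0.95), and it ran from 0.06 without CPB replicate 2 to 0.55 without CPB replicate 3.

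Rps6, the S6 kinase substrate, was low on a single CPB array. Its deposited log2 values were 13.31, 14.15 and 13.83 on CPB replicates 1, 2 and 3, and 14.05, 13.99 and 13.72 on sham replicates 1, 2 and 3. The groups overlapped, and the highest of all values was that of CPB replicate 2. The fitted log2 difference was -0.18 (SE 0.29, 95% interval -0.80 to 0.44), and it changed sign to 0.07 without CPB replicate 1.

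Rpl29 followed Rps6 closely. Its deposited log2 values were 13.11, 13.84 and 13.89 on CPB replicates 1, 2 and 3, and 14.05, 14.07 and 13.68 on sham replicates 1, 2 and 3. CPB replicate 1 again lay below all others, and the other CPB values fell within the sham range. The fitted log2 difference was -0.33 (SE 0.30, 95% interval -0.96 to 0.30), and -0.07 without CPB replicate 1.

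The 5 genes did not move as a block between the groups. After quantile normalization Rps29, Rpl29 and Rps6 had lower means in CPB hearts and Rps7 and Rpl15 higher ones, with a median log2 difference of -0.18 beside -0.03 over all probes. These differences are a description, since the genes were chosen on these values. The signs of the smaller differences depended on the scaling. When all arrays were brought to the same median, Rps6 stood at 0.24 and Rpl29 at 0.07, while Rps29 (-0.09), Rps7 (0.75) and Rpl15 (0.78) kept their signs. The median of all probes was itself -0.29 as deposited and 0.11 after median scaling, and relative to it Rps29 lay at -0.20 under both, Rps7 at 0.64 and Rpl15 at 0.68.

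**Figure D3:**
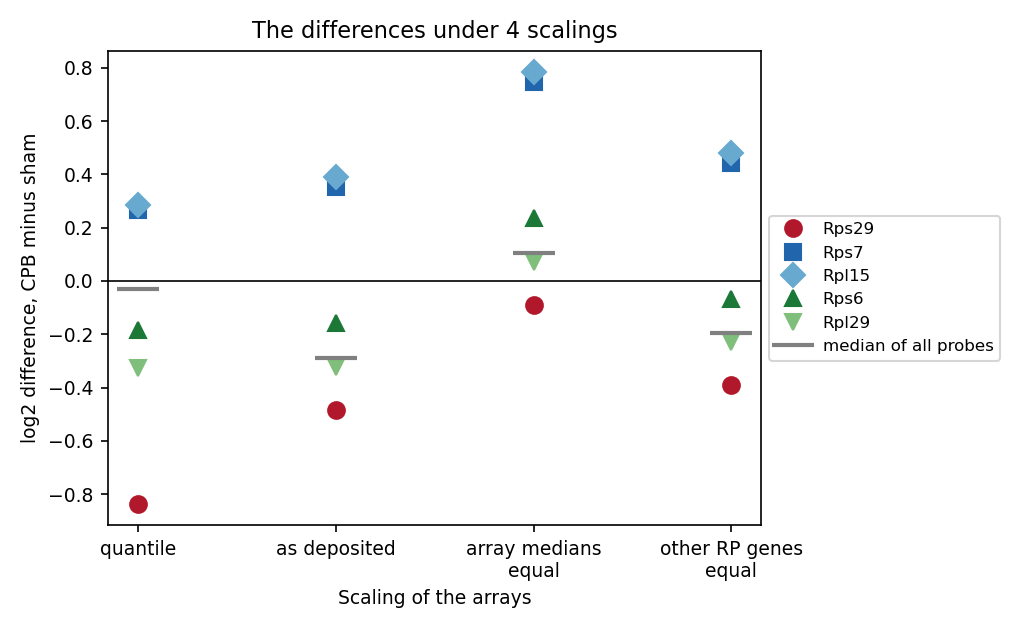
The log2 difference, CPB minus sham, of the 5 genes under 4 scalings of the arrays: quantile normalization, values as deposited, equal array medians, and equal means of the 13 other ribosomal protein genes. The grey bar is the median of all probes. Rps29 is the lowest of the 5 under each scaling (from -0.84 to -0.09), and Rps7 and Rpl15 the highest. All scalings but quantile normalization shift the probes of an array alike, so among them the order of the 5 cannot differ.

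In the deposited values, ratios within an array do not change when a whole array is multiplied by a factor, although quantile normalization does change them. They showed how closely the 5 genes varied together. The log2 ratio of Rps6 to Rpl29 had an SD of 0.15 over the 6 arrays, the smallest of the 10 pairs. The ratios of Rps29 to Rps6 and to Rpl29 had SDs of 0.22 and 0.22. The other 7 pairs, all with Rps7 or Rpl15, had SDs from 0.32 (Rps7 with Rps6) to 0.68 (Rps29 with Rpl15). Rps7 was about as close to Rps6 as to Rpl15 (0.35), so the 5 genes do not form separate sets. Without CPB replicate 1, on which Rps29, Rps6 and Rpl29 all had their lowest value, the first 3 SDs were 0.16, 0.24 and 0.24, and that of Rps7 with Rps6 was 0.25. Within groups, with the group means removed, the SD was 0.14 for Rps6 with Rpl29 and for Rps29 with Rps6, 0.18 for Rps7 with Rps6, 0.22 for Rps29 with Rpl29 and 0.24 for Rps29 with Rps7. Pairs with Rpl15 spread from 0.39 to 0.61 within groups. The median over the 10 pairs was 0.39, beside 0.55 over the 1225 pairs of the 50 brightest probes, which include these 5. These pairs were singled out after their values were seen and describe 6 arrays.

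Between the groups, the mean ratio of Rps29 differed more against Rps7 and Rpl15 than against Rps6 and Rpl29, a contrast of these values that was not tested. Its log2 value minus that of Rps7 was 1.53, 1.70 and 1.77 on CPB replicates 1, 2 and 3, and 2.85, 2.24 and 2.42 on sham replicates 1, 2 and 3. The groups did not overlap, at 1.67 ± 0.12 for CPB and 2.50 ± 0.31 for sham (SD, n = 3 each). However, 16.5% of all other probes were also lower against Rps7 in every CPB heart. Against Rpl15 the Rps29 ratio differed by -0.87 between the group means and the groups overlapped.

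Rps6 and Rpl29 followed. The log2 value of Rps29 minus that of Rps6 was 2.53, 2.38 and 2.42 on CPB replicates 1, 2 and 3, and 2.93, 2.57 and 2.82 on sham replicates 1, 2 and 3. The groups stood apart by a small gap, with a difference of -0.33 between the means (1.35% of other probes were lower against Rps6 in the same way). Against Rpl29 the difference was -0.16 and the groups overlapped, at 2.59 ± 0.21 for CPB and 2.76 ± 0.24 for sham (SD, n = 3 each).

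Against the mean of the other 4 genes, Rps29 stood at 2.07, 2.14 and 2.31 on CPB replicates 1, 2 and 3, and at 2.99, 2.43 and 2.75 on sham replicates 1, 2 and 3. The lowest sham value lay above the highest CPB value in these deposited values, but after quantile normalization the groups overlapped (CPB replicate 3 at 2.45 and sham replicate 2 at 2.34). The difference of the means was -0.55 (2.17 ± 0.12 in CPB and 2.72 ± 0.28 in sham; SD, n = 3), and 2.62% of probes stood apart in this direction against the same 4 genes. It was -0.92, -0.29 and -0.43 between hearts sharing replicate number 1, 2 and 3. It ran from -0.69 to -0.41 when any single array was left out. A ratio of this kind shows unequal change of the 2 sides and not which side changed.

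Against the means of other reference genes the difference between CPB and sham in the Rps29 ratio was smaller. Against the mean of 13 further ribosomal protein probes above the lowest level, it was 4.15, 4.65 and 4.68 on CPB replicates 1, 2 and 3, and 5.03, 4.78 and 4.79 on sham replicates 1, 2 and 3. The difference of the means was -0.38, without overlap (1.54% of probes stood apart in this direction). Against the mean of Gapdh, Actb and Hprt1, common reference genes whose probe IDs fall in the same short numbered series of 9 probes as that of Rps29, the difference was -0.36 and the groups overlapped. The Rps29 ratio there spread by 0.60 (SD) among CPB hearts. Taken singly, the differences were unequal: -0.18 against Gapdh, -0.14 against Actb and -0.77 against Hprt1, each with overlapping groups. Rps7 against the 13 ribosomal protein probes was higher in CPB hearts without overlap (difference 0.46, with 1.88% of probes apart in this direction).

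**Figure D4:**
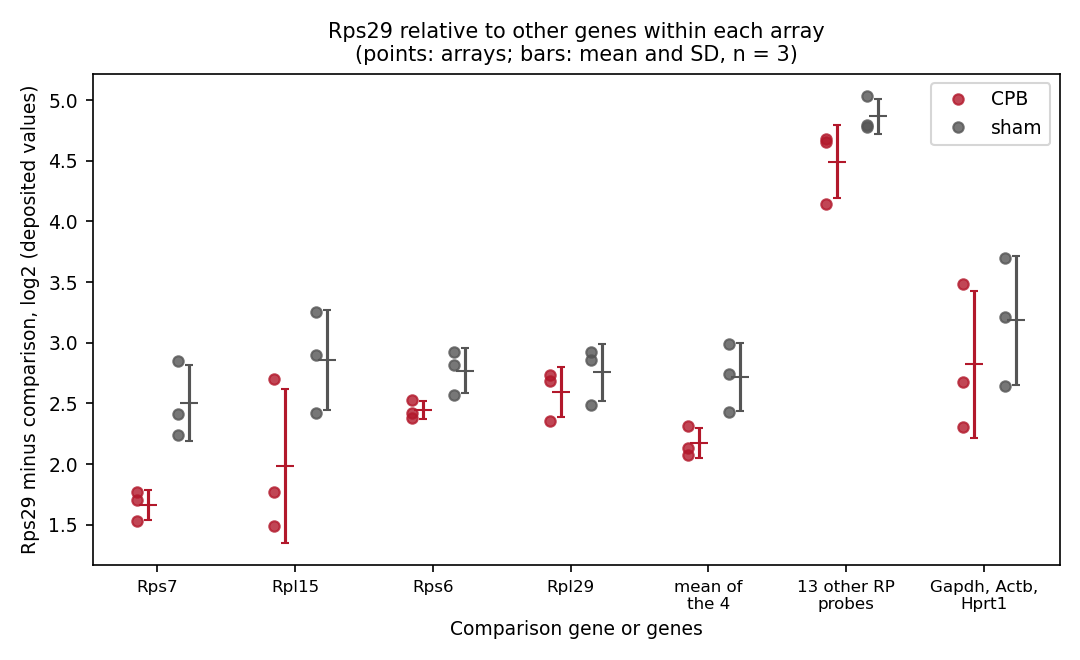
Log2 value of Rps29 minus that of the gene or genes named below the axis, within each array, from deposited values. Points are arrays, and bars give the mean and SD (n = 3) of CPB and sham hearts. The groups are apart for Rps7, for Rps6, for the mean of the 4 genes and for the 13 other ribosomal protein (RP) probes, and overlap for Rpl15, Rpl29 and the mean of Gapdh, Actb and Hprt1.

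Cell type markers were summed beside these results. The summed level of the fibroblast markers measured (Sparc and Dcn, matrix proteins) ran from 13.42 to 14.47 in CPB and from 14.82 to 15.16 in sham hearts, on the deposited log2 scale, with neither marker at the lowest level on any array. The groups thus did not overlap, and CPB hearts were lower, as for Rps29 and for 3.12% of all single probes. Sparc is also the probe called in the deposited values. For the neutrophil and monocyte markers S100a9 and Lyc2 the sums were 11.02 to 12.10 in CPB and 11.96 to 13.11 in sham hearts. For 7 cardiomyocyte markers they were 19.32 to 19.45 and 18.91 to 19.36. Smooth muscle and pericyte markers gave 12.98 to 13.96 in CPB and 13.27 to 13.52 in sham hearts. Macrophage markers gave 12.16 to 12.52 and 12.50 to 12.67, and lymphocyte markers 10.47 to 12.26 and 10.35 to 11.25. The groups overlapped for all these types except fibroblasts. Their part in the Rps29 difference was not tested. In RNA from whole hearts, fewer cells of a type and less RNA per cell cannot be told apart.

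Of the other cytosolic ribosomal protein genes, 13 were measured, and all but Rps14 stayed off the lowest level throughout. In the quantile normalized fit 6 were higher and 7 lower in CPB hearts, 0 passed the limma threshold (0% of all probes did), and 0 had an unadjusted p under 0.05. Their median log2 difference was -0.00, beside -0.03 over all probes. After median scaling 11 were higher and 2 lower, with a median of 0.37 beside 0.11 over all probes, so no direction can be read for the family.

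The furthest of these genes were Rpl10a, a large-subunit protein, at 0.64 (SE 0.35, limma adjusted p = 0.909), and Rps15, a small-subunit protein, at -0.44 (SE 0.30, limma adjusted p = 0.909). Rps14 stood at -0.30 (SE 0.37), with 1 CPB array at the lowest level, Rpl5 at -0.27 (SE 0.29), Rps10 at -0.26 (SE 0.35) and Rps24 at -0.13 (SE 0.39). Rpl14, the next brightest after the 5, was at 0.12 (SE 0.32). Rpl4 (0.06), Rpl32 (0.04), Rpl39 (0.02), Rplp0 (0.01) and Rpl18 (-0.00) lay close to 0, with intervals of at least 0.58 on either side. The probes of Rpsa, the laminin receptor ribosomal protein, gave -0.26 (RA0043) and -0.37 (RA1213).

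**Figure D5:**
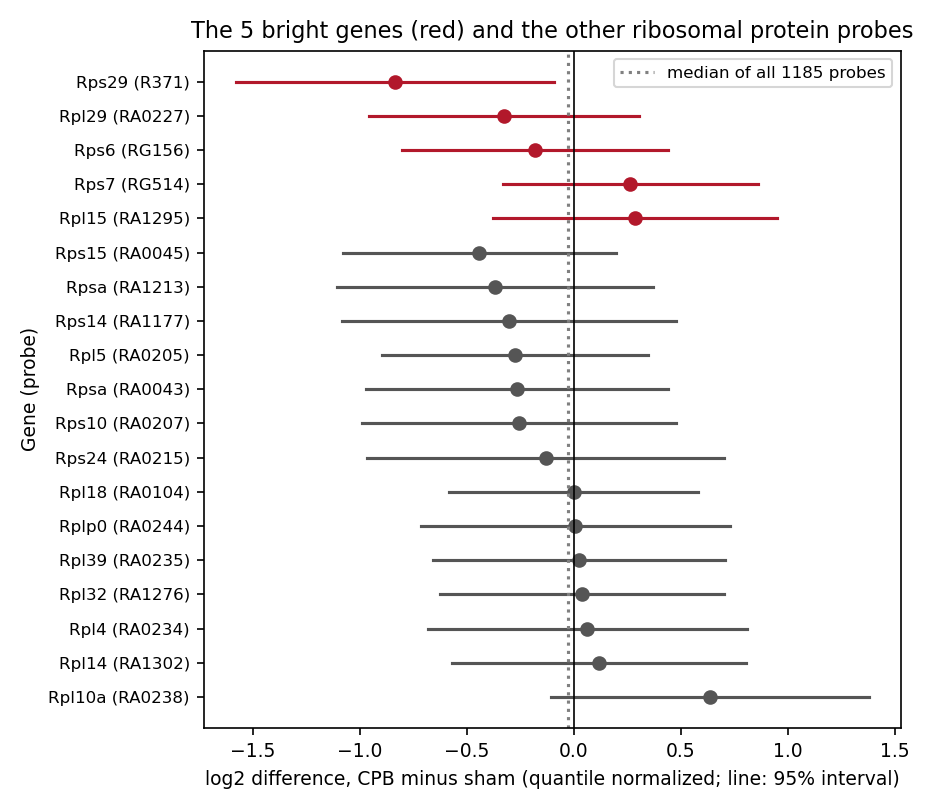
Log2 difference, CPB minus sham, after quantile normalization for the 5 bright ribosomal protein genes (red) and the 14 probes of 13 other ribosomal protein genes (grey). Lines are 95% intervals, and the dotted line is the median of all 1185 probes (-0.03). Rps29 is the lowest point (-0.84, with a line from -1.58 to -0.09) and Rpl10a the highest (0.64).

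Genes that serve the ribosome did not pass the threshold either. Of 7 translation factors measured, 5 were higher and 2 lower, and 0 were called (median 0.14, which was -0.02 in deposited values and 0.38 under median scaling). Eef1a1, which brings aminoacyl-tRNA to the ribosome, was at -0.07 (SE 0.34). Eif4ebp1, the inhibitor of cap-dependent initiation that mTOR phosphorylates, was at -0.22 (SE 0.33), and the Eif2b subunits Eif2b5 and Eif2b2 at 0.16 (SE 0.40) and 0.17 (SE 0.38). Of 3 nucleolar and RNA polymerase I genes, nucleolin (Ncl) was at 0.23 (SE 0.29), while the polymerase subunits Polr1a and Polr1b, at -0.03 each, were at the lowest level on 2 arrays and 1 array.

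Of 7 genes of mTOR, S6 kinase and translation control signalling, 4 were higher and 3 lower, and 0 were called (median 0.17, which was -0.07 in deposited values and 0.32 under median scaling). The AMP kinase subunits Prkab1 and Prkag1 were at 0.27 (SE 0.34) and 0.17 (SE 0.30), the mTOR activator Rheb at 0.17 (SE 0.50) and the eIF2alpha kinase Eif2ak1 at -0.02 (SE 0.39). Of 5 other transcripts known for a terminal oligopyrimidine tract, 2 were higher and 3 lower, and 0 were called (median -0.07, with 0.38 after median scaling). Eef1a1, counted above among the translation factors, is also in this list, and both medians are its values. The 0.38 of the translation factors is the same Eef1a1 value. Tpt1, which encodes translationally controlled tumour protein and ranked 9.67 on average, was at 0.13 (SE 0.32), and the ribosomal scaffold Rack1 at -0.21 (SE 0.33). Hnrnpa1, an RNA-binding protein, was at 0.58 (SE 0.27, limma adjusted p = 0.909). No mitochondrial ribosomal protein or aminoacyl-tRNA synthetase of the lists was measured.

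Among genes outside the 5, those most like them in pattern over the 6 arrays were not ribosomal protein genes. Likeness was taken as the root mean square distance between quantile normalized log2 values after each gene was centred on its own mean. The search covered 464 probes with 1 symbol that were off the lowest level on each array. The 5 genes were left out of it, so none of them could be found like another. After this normalization Rps29 itself takes the same value on several arrays. Nearest to Rps29 were Tg (thyroglobulin) at 0.25, Penk (proenkephalin) at 0.25 and Zeb1 (a transcription factor) at 0.29, where the median probe was at 0.68. Penk stood at 10.09, 11.66 and 11.08 on CPB replicates 1, 2 and 3, and at 12.15, 11.54 and 11.74 on sham replicates 1, 2 and 3, so it too was lowest on CPB replicate 1. Nearest to the mean of the other 4 genes were Phax (0.08), Uso1 (0.10) and Prps1 (0.12), where the median probe was at 0.39. All 6 of these probes were far dimmer, with mean ranks from 139.9 to 439.6.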

How the data were processed

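Total RNA from 3 CPB and 3 sham hearts was measured on 1 array each, and groups and replicate numbers were taken from the titles. The authors deposited values that behave as a natural log (ln) of a linear array signal, judged from the values because no label states the unit. After a hyperbolic sine each array's values become whole multiples of a fixed step, with departures of at most 6.29e-06 steps. No label or header used here names the background correction or normalization behind them.

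For the comparisons, that linear signal (2 × sinh) was quantile normalized, and log2 was taken without a pseudocount. Differences were fitted in R 4.3.3 with lmFit and trended eBayes of limma 3.58.1 (two-sided), adjusted by Benjamini-Hochberg over 1185 probes at a threshold of 0.05. The fit was tested on simulated data. Array scaling matters here, because array medians differ and quantile values of the brightest probes follow rank. Ratios within arrays use the deposited values converted to log2, without quantile normalization. Where a gene has several probes, the brightest stands for it in counts.

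Of the probes, 1113 carry 1 symbol, 2 several and 70 none. The 5 genes and the lists were chosen with earlier results of these data known. Genes named outside the 5 are all measured ribosomal protein genes, the 4 brightest of each other non-marker list, and the 3 nearest in pattern to Rps29 and to the other 4. Also named are the reference genes Gapdh, Actb and Hprt1, cell type markers, and probes that were brighter than Rps29. Deviations from group means correlated at 0.240, 0.277 and 0.296 between CPB and sham arrays numbered 1, 2 and 3. All exceeded 0.1, but arrays of unlike numbers were not correlated for comparison. The share of probes at the lowest level was 27.4%, 10.7% and 47.3% on CPB arrays 1, 2 and 3. On sham arrays 1, 2 and 3 it was 25.9%, 20.5% and 43.3%. The correlations therefore cannot say whether the numbers pair the hearts or only arrays alike in this share, and no label says so. An alternative fit blocked on the replicate number. Other alternatives were the values as deposited, equal array medians, a pseudocount, a filter on the lowest level, no variance trend, and leaving out each array.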

Additional observations from a re-analysis of the deposited data

How the results depend on the processing

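Of 91 recomputed differences, 84 moved by less than the SD between replicates. These include the filter, the variance model and the replicate block, which by construction leave each difference unchanged. The SD is also a wide allowance: Rps6 went from -0.18 to 0.07 without CPB replicate 1 and stayed within it. Most of the other 7 came from scaling arrays to the same median: Rps29 stood at -0.089, Rps7 at 0.75, Rps6 at 0.24, Rpl15 at 0.78, Rpl29 at 0.072 and the median of the 5 at 0.24. Quantile normalization gave -0.85 in place of -0.55 for Rps29 against the other 4 genes. Median scaling shifts all probes of an array by the same amount, so the moves it gave are not separate results. Why the array medians differ was not tested. Rps29 kept its sign in 13 of 13 alternatives, Rps7 and Rpl15 likewise, Rpl29 in 12 and Rps6 in 11. These counts include the filter, the variance model and the block, which could not change a sign. The count of called probes was 1 in the values as deposited and 0 to 1 when 1 array was left out (1 without CPB replicate 1). With the replicate number as a block, 0 probes were called, no other call changed, and the Rps29 difference of -0.84 had an SE of 0.44 and a 95% interval of -2.19 to 0.52, which includes 0. The pseudocount (-0.83 for Rps29) moved no result by more than its spread, while the filter and the variance model could not move a difference. A choice between probes of 1 gene could not be tried, since each of the 5 genes has 1 probe. Scaling to the 13 other ribosomal protein genes, and the other reference genes for Rps29, were chosen after seeing the data. The number of hearts, 3 a group, limits the precision of all 5 differences.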
